A study of Mus musculus with 10 samples.

Results

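Peripheral nerves and neural crest-derived cells of the embryonic kidney were followed through 7 genes, *Sox10*, *Tubb3*, *Prph*, *Th*, *Stmn2*, *Elavl4* and *Ngfr*, which were picked by symbol from a table of 35663 gene entries and were each found once. RNA had been sequenced from whole dissected kidneys of mouse embryos at E13.5 (embryonic day), strain C57/b6 in the labels. The libraries fell into 4 wild-type kidneys, 3 kidneys carrying a Foxd1-Cre allele (*Foxd1GC* control) and 3 kidneys carrying the same allele together with 2 conditional copies of *Ntn1* (Ntn1c/c in the labels, here *Ntn1SPKO*), the gene of the secreted guidance cue netrin 1. *Foxd1GC* makes Cre in progenitors of the kidney stroma, so *Ntn1* is removed from stroma and its descendants and not from neurons or glia outside that lineage. Both the controls and the *Ntn1SPKO* kidneys carry this allele and the wild-type kidneys do not. The labels do not say whether a library came from 1 embryo or from pooled kidneys, so p-values measure the spread between these libraries, which may be partly technical. In a whole organ, fewer cells of a type and less RNA per cell cannot be told apart.

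Kidney nerves are axons of sympathetic and sensory neurons whose cell bodies lie outside the organ, while the glia that accompany them and some ganglion cells at its border come from migrating neural crest. Sympathetic neurons make noradrenaline from tyrosine through a chain of enzymes that begins with tyrosine hydroxylase. A kidney library therefore holds the RNA of Schwann cell precursors and of any ganglion cells dissected with it, together with what little messenger RNA the axons carry.

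The genes cover several roles. *Sox10* encodes the transcription factor of migrating neural crest and glia, and lies on chromosome 15 from 79154908 to 79165240 on the minus strand of the mouse genome GRCm38 (GENCODE M21, also used for the other genes). *Ngfr*, the p75 neurotrophin receptor of crest cells, glia and several kinds of mesenchyme, lies on chromosome 11 from 95568818 to 95587735, minus strand. *Tubb3*, the neuronal beta-tubulin, lies on chromosome 8 from 123411424 to 123422015, plus strand. *Stmn2*, a tubulin-binding protein of growing axons, lies on chromosome 3 from 8509360 to 8561606, plus strand, and *Elavl4*, a neuronal RNA-binding protein, on chromosome 4 from 110203722 to 110351909, minus strand. *Prph*, an intermediate filament of peripheral neurons, lies on chromosome 15 from 99055174 to 99058978, plus strand. *Th*, tyrosine hydroxylase, lies on chromosome 7 from 142892752 to 142931128, minus strand. All 7 are protein coding.

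The stretches before the transcription starts of *Th* and *Prph* are shown because this pair had the highest correlation across libraries, and those of *Tubb3* and *Ngfr* to set beside them. RefSeq (GRCm38.p6) gave starts for 5 of the 7 genes. Each line holds the 250 bases before a start, 5′ to 3′ on the gene's strand. Capitals mark matches, on either strand, to the E-box CANNTG, the cAMP response element TGACGTCA or its short form TGACG, the SOX core ACAAT, the homeodomain core TAATTA, or the left and right parts CAGCACC and GGACAG of the repressor element RE1. The whole cAMP response element contains its short form on both strands.
*Th*, chr7:142899996-142900245, minus strand: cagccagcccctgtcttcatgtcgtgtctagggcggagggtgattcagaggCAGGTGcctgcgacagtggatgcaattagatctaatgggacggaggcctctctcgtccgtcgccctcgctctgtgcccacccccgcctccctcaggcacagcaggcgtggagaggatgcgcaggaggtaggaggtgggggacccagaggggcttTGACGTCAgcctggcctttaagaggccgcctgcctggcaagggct
*Prph*, chr15:99054924-99055173, plus strand: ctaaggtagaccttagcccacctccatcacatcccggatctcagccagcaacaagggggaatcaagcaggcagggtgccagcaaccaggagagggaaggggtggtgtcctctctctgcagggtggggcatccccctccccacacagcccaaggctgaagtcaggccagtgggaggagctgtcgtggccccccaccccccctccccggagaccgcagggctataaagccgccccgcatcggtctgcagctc
*Tubb3*, chr8:123411303-123411552, plus strand: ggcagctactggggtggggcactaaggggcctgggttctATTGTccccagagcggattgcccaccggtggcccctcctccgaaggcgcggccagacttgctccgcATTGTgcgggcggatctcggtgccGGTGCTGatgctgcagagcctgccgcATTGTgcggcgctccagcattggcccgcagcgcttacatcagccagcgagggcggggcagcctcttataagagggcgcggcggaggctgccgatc
*Ngfr*, chr11:95587699-95587948, minus strand: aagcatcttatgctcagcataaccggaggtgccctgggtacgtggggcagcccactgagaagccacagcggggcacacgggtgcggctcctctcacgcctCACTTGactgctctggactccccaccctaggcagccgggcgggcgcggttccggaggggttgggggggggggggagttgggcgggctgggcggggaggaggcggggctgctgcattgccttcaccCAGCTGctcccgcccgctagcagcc

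The *Th* window held 1 cAMP response element, whose first base lies 45 bases before the start, and 1 E-box. A whole cAMP response element was found in 1.55% of 32851 such windows over the genome and an E-box in 66.2%. The *Prph* window held none of the motifs. The *Tubb3* window held 3 SOX cores, present in 27.7% of windows, and 1 CAGCACC part of RE1, present in 5.73%. The *Ngfr* window held 2 E-boxes. *Elavl4* has 4 annotated starts, of which a pair lie 16 bases apart and share most of their windows. That pair held the same homeodomain core, found in 4.84% of all windows, and the same short cAMP response element, found in 17.8%, and 1 further window held another short element. GGACAG was in none of the members' windows and in 18.7% of all. These matches describe letters, not binding.

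Levels are given as FPKM, fragments per kilobase of coding sequence per 1e6 fragments, which allows genes to be compared per length. Averaged over the 10 libraries, *Ngfr* lay at percentile 69.8 of the entries above 0, *Stmn2* at percentile 65.2 and *Elavl4* at percentile 59.7. *Tubb3* followed at percentile 44.5, *Prph* at 37.8, *Sox10* at 33.3 and *Th* at 30.5. Members with the lowest levels also spread most. The highest library exceeded the lowest 1.69-fold for *Ngfr*, 1.75-fold for *Elavl4*, 2.85-fold for *Tubb3* and 3.67-fold for *Stmn2*, against 6.27-fold for *Sox10*, 12.3-fold for *Prph* and 12.7-fold for *Th*. Depth was estimated from the spacing of low values at 31 to 33 M fragments per library (M is 1e6 here). At that depth the level of *Th* rested on about 2 to 26 fragments per library, *Sox10* on 4 to 25, *Prph* on 3 to 39 and *Tubb3* on 28 to 80. *Stmn2* rested on about 78 to 295 fragments, *Elavl4* on 162 to 282 and *Ngfr* on 443 to 725. Counting error alone is thus large for *Th*, *Sox10* and *Prph*.

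The order of the means was *Ngfr*, *Stmn2*, *Elavl4*, *Tubb3*, *Prph*, *Sox10* and *Th* in *Foxd1GC* control and *Ntn1SPKO* kidneys. Wild-type kidneys had the same order except that *Stmn2*, at 12.5 ± 4.03 FPKM (mean ± SD, n=4), stood marginally above *Ngfr*, at 12.2 ± 1.56 FPKM (n=4). *Stmn2* and *Elavl4* overlapped in the controls and in the *Ntn1SPKO* kidneys, and *Stmn2* and *Ngfr* overlapped in wild type. From *Elavl4* to *Tubb3* there was a gap with no overlap in any group. Below that gap the neighbours *Prph*, *Sox10* and *Th* overlapped in all 3 groups, and *Tubb3* and *Prph* overlapped in the controls and *Ntn1SPKO* kidneys.

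**Figure D1:**
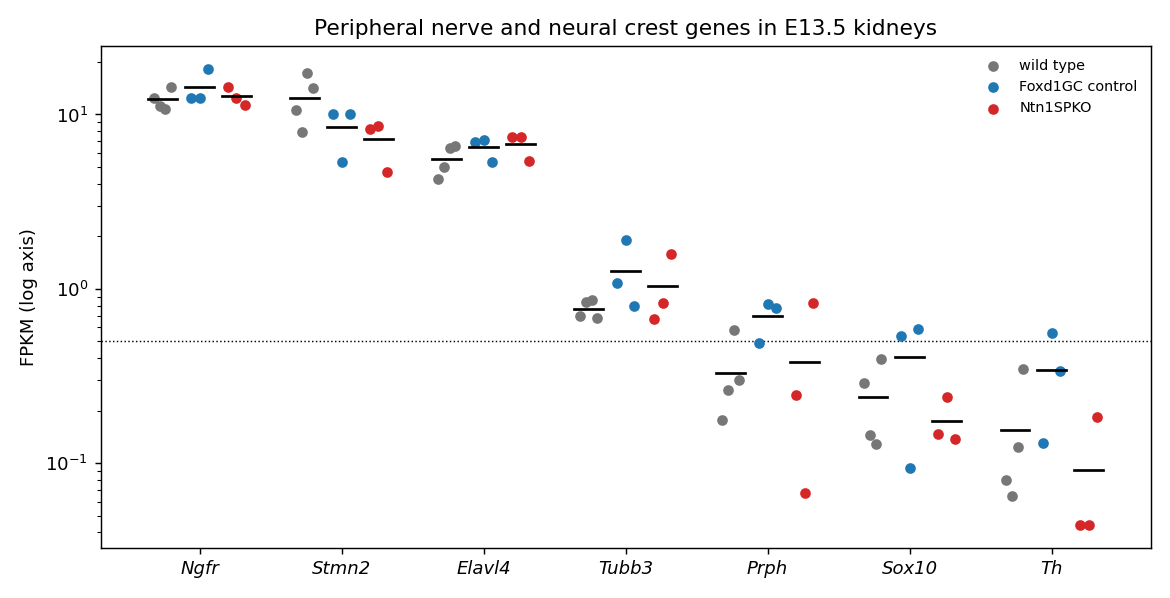
FPKM of the 7 genes on a log axis, with 1 point per library (grey wild type, n=4; blue *Foxd1GC* control, n=3; red *Ntn1SPKO*, n=3), black bars at group means and a dotted line at 0.5 FPKM, the lowest mean at which a gene was tested across the table. *Ngfr*, *Stmn2* and *Elavl4* form an upper band, *Prph*, *Sox10* and *Th* spread most widely, on both sides of the line, and the groups overlap for each gene.

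Groups were compared with limma, a linear model fitted gene by gene with a shared estimate of spread, on log2(FPKM+0.1) over all genes whose mean reached 0.5 FPKM in the libraries fitted. A gene was called when its adjusted p (Benjamini-Hochberg over all genes tested) was under 0.1 and the change at least 2-fold. Differences are between group means on this log2 scale, on which changes of the lowest genes are understated. Each member also had an exact permutation test, two-sided, whose smallest possible p is 0.1 for 3 libraries against 3 and 0.0571 for 3 against 4, so it could not pass 0.05. The comparison of *Ntn1SPKO* with *Foxd1GC* control kidneys asks about loss of *Ntn1* on a shared Cre background. That of *Foxd1GC* control with wild-type kidneys asks about the Cre allele, and that of *Ntn1SPKO* with wild-type kidneys about both at once. The 3 comparisons share libraries and are not independent of each other.

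Over all genes these limma fits on FPKM called little. Between *Ntn1SPKO* and *Foxd1GC* control kidneys the paper reported many more changed genes, from another method (DESeq2) that was not run here. Of 14550 genes tested between *Ntn1SPKO* and *Foxd1GC* control kidneys 8 were called (0.055%), and 10.7% had an unadjusted p under 0.05. Against wild type, *Ntn1SPKO* kidneys had 7 calls among 14432 genes (0.0485%) and 5.76% under 0.05, and *Foxd1GC* controls 1 call among 14594 (0.00685%) and 7.06% under 0.05. *Ntn1* itself was 13.4 ± 2.81 FPKM in *Ntn1SPKO* kidneys and 38.8 ± 13.7 FPKM in controls (n=3 each), with no overlap, yet at a limma adjusted p of 0.447 the deleted gene was not called. All 3 *Ntn1SPKO* libraries were male by their Y-linked genes, whereas 1 of 3 control and 1 of 4 wild-type libraries were. Control replicate 3 stood apart: its 17 skeletal muscle genes summed to 533 FPKM against 65.5 to 150 FPKM in the other libraries, and *Ret* and *Calb1* of the ureteric bud were 4.09 and 16.4 FPKM against at least 14.1 and 57.4 FPKM. Kidney genes (*Six2*, *Wt1*, *Pax2* and others, 12 in all) were above 0.5 FPKM on average without exception.

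No member was called in any comparison, against the shares above. In *Ntn1SPKO* versus *Foxd1GC* control kidneys 5 of the 7 members reached the level for testing, 4 with a lower and 1 with a higher mean, at a median log2 difference of −0.22 against 0.01 over all genes, and 0 had an unadjusted limma p under 0.05. Against wild type 4 members were tested in each comparison. Their median log2 difference was 0.17 in *Ntn1SPKO* kidneys, where 1 member, *Stmn2*, had an unadjusted p under 0.05, and 0.23 in *Foxd1GC* controls, where 0 did. Medians over all genes tested were within 0.01 of 0 in both cases. With the low members counted too, the middle log2 difference of the 7 from wild type was −0.11 in *Ntn1SPKO* kidneys (that of *Prph*). In controls it was 0.45 (that of *Sox10*). Between *Ntn1SPKO* and control kidneys it was −0.27 (that of *Tubb3*). No member had groups that did not overlap, a property shown by 8.91% of all genes in the lower and 11.0% in the higher direction between *Ntn1SPKO* and control kidneys. The matching shares were 3.54% and 3.56% between *Ntn1SPKO* and wild-type kidneys, and 4.04% in each direction between *Foxd1GC* control and wild-type kidneys.

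*Sox10*, the mark of crest and glia, was 0.287, 0.144, 0.128 and 0.393 FPKM in wild-type replicates 1 to 4. It was 0.538, 0.0931 and 0.584 FPKM in control replicates 1 to 3 and 0.147, 0.239 and 0.137 FPKM in *Ntn1SPKO* replicates 1 to 3. The controls held both the highest values and the lowest one, so the groups overlapped. The mean in the controls, 0.405 ± 0.271 FPKM, was 2.32 times that of the *Ntn1SPKO* kidneys, 0.174 ± 0.056 FPKM (n=3 each). The exact permutation p was 0.4, and the log2 difference of −0.70 became 0.49 once embryo sex entered the model. That model sets the *Ntn1SPKO* kidneys, all male, against control replicate 2, the only male control. Too low to be tested with the other genes, *Sox10* had a limma adjusted p of 0.665 in a fit with no filter on level. Compared with wild type, 0.238 ± 0.126 FPKM (n=4), the log2 difference was −0.25 in *Ntn1SPKO* kidneys (exact permutation p=0.514) and 0.45 in controls (exact permutation p=0.4). With 1 library left out, the difference from controls ranged from −1.29 (without control replicate 2) to −0.37 (without control replicate 3). The differences from wild type ranged from −0.41 to −0.04 in *Ntn1SPKO* kidneys and from 0.13 to 1.04 in controls.

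*Ngfr* was 12.5, 11.2, 10.8 and 14.3 FPKM in wild-type replicates 1 to 4. In the controls it was 12.5, 12.4 and 18.3 FPKM, and in *Ntn1SPKO* kidneys 14.4, 12.4 and 11.4 FPKM. The steadiest of the members, it stood out only in control replicate 3, the library with the high muscle genes. Between *Ntn1SPKO* and control kidneys the log2 difference was −0.16 (95% interval −0.58 to 0.26, limma adjusted p=0.666), and without control replicate 3 it was 0.02. Against wild type the log2 difference was 0.06 in *Ntn1SPKO* kidneys (−0.22 to 0.35, limma adjusted p=0.956) and 0.22 in controls (−0.16 to 0.60, limma adjusted p=0.696). Each of these intervals lies within a 2-fold change in either direction.

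*Tubb3* was 0.701, 0.840, 0.862 and 0.679 FPKM in wild-type replicates 1 to 4. Control replicates 1 to 3 had 1.08, 1.91 and 0.796 FPKM and *Ntn1SPKO* replicates 1 to 3 had 0.670, 0.833 and 1.59 FPKM. Wild-type kidneys lay close together, and control replicate 2 and *Ntn1SPKO* replicate 3 were the highest. The log2 difference of *Ntn1SPKO* from control kidneys was −0.27 (SE 0.43, limma adjusted p=0.775) and was 0.05 without control replicate 2. Against wild type it was 0.30 in *Ntn1SPKO* kidneys (SE 0.30, limma adjusted p=0.947) and 0.57 in controls (SE 0.31, limma adjusted p=0.665).

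*Elavl4* was 4.25, 5.0, 6.38 and 6.57 FPKM in wild-type replicates 1 to 4, 6.98, 7.10 and 5.35 FPKM in control and 7.43, 7.39 and 5.38 FPKM in *Ntn1SPKO* replicates 1 to 3. The top 4 values were control replicates 1 and 2 and *Ntn1SPKO* replicates 1 and 2, but the remaining library of each group fell within the wild-type range. Its log2 difference between *Ntn1SPKO* and control kidneys was 0.05, the smallest of the members (95% interval −0.38 to 0.48, limma adjusted p=0.903). Against wild type it was 0.28 in *Ntn1SPKO* kidneys (−0.16 to 0.72, limma adjusted p=0.947) and 0.23 in controls (−0.20 to 0.66, limma adjusted p=0.706).

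*Stmn2* was the member with the lowest unadjusted p in any comparison. It was 10.6, 7.95, 17.2 and 14.1 FPKM in wild-type replicates 1 to 4. Control replicates 1 to 3 had 10.04, 5.32 and 9.996 FPKM, and *Ntn1SPKO* replicates 1 to 3 had 8.30, 8.61 and 4.68 FPKM. Only wild-type replicate 2 kept the *Ntn1SPKO* and wild-type values from separating. The mean of 7.20 ± 2.19 FPKM in *Ntn1SPKO* kidneys (n=3) compared with 12.5 ± 4.03 FPKM in wild type (n=4), a ratio of wild type to *Ntn1SPKO* of 1.73. The log2 difference was −0.78 (SE 0.31, 95% interval −1.49 to −0.06), with an unadjusted limma p of 0.0368, a limma adjusted p of 0.813 and an exact permutation p of 0.171. Genes with an unadjusted p under 0.05 made up 5.76% of those tested, and *Stmn2* did not pass the adjustment. With embryo sex in the model the log2 difference was −1.30. All *Ntn1SPKO* kidneys are male, so that difference rests on 1 wild-type library, the male replicate 3. That library had the highest value of all. Against wild type, *Foxd1GC* controls had a log2 difference of −0.55 (−1.28 to 0.18, limma adjusted p=0.667), and *Ntn1SPKO* differed from control kidneys by −0.22 (−1.03 to 0.58, limma adjusted p=0.759).

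*Prph* was 0.176, 0.264, 0.582 and 0.298 FPKM in wild-type replicates 1 to 4, 0.488, 0.816 and 0.780 FPKM in control and 0.247, 0.0671 and 0.824 FPKM in *Ntn1SPKO* replicates 1 to 3. Both extremes of the table were *Ntn1SPKO* libraries, replicate 2 at the bottom and replicate 3 at the top. Means were 0.695 ± 0.18 FPKM in controls and 0.379 ± 0.395 FPKM in *Ntn1SPKO* kidneys (n=3 each). The log2 difference of −1.05 had a 95% interval of −2.68 to 0.58 and a limma adjusted p of 0.5. Without *Ntn1SPKO* replicate 2 it was −0.46. *Prph* fell below the level for testing in both comparisons with wild type, where the log2 differences were −0.11 in *Ntn1SPKO* kidneys (exact permutation p=0.914) and 0.94 in controls (exact permutation p=0.114). The first of these ranged from −0.75 without *Ntn1SPKO* replicate 3 to 0.48 without *Ntn1SPKO* replicate 2.

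*Th* was 0.0799, 0.0643, 0.123 and 0.348 FPKM in wild-type replicates 1 to 4. Controls had 0.130, 0.560 and 0.336 FPKM and *Ntn1SPKO* kidneys 0.0444, 0.0442 and 0.184 FPKM. The lowest pair were *Ntn1SPKO* libraries with about 2 fragments each, and the highest was control replicate 2 with about 26. The mean of 0.342 ± 0.215 FPKM in controls was 3.76 times the 0.091 ± 0.0809 FPKM of *Ntn1SPKO* kidneys (n=3 each), the largest ratio of means among the members in that comparison. *Ntn1SPKO* replicate 3 exceeded control replicate 1, and the log2 difference of −1.16 had an exact permutation p of 0.2. In a fit with no filter on level the limma adjusted p was 0.55. From wild type, the log2 difference was −0.37 in *Ntn1SPKO* kidneys (exact permutation p=0.571) and 0.80 in controls (exact permutation p=0.171). With 1 library left out, the difference between *Ntn1SPKO* and control kidneys ranged from −1.57 to −0.81, and those from wild type from −0.69 to −0.05 and from 0.44 to 1.20.

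**Figure D2:**
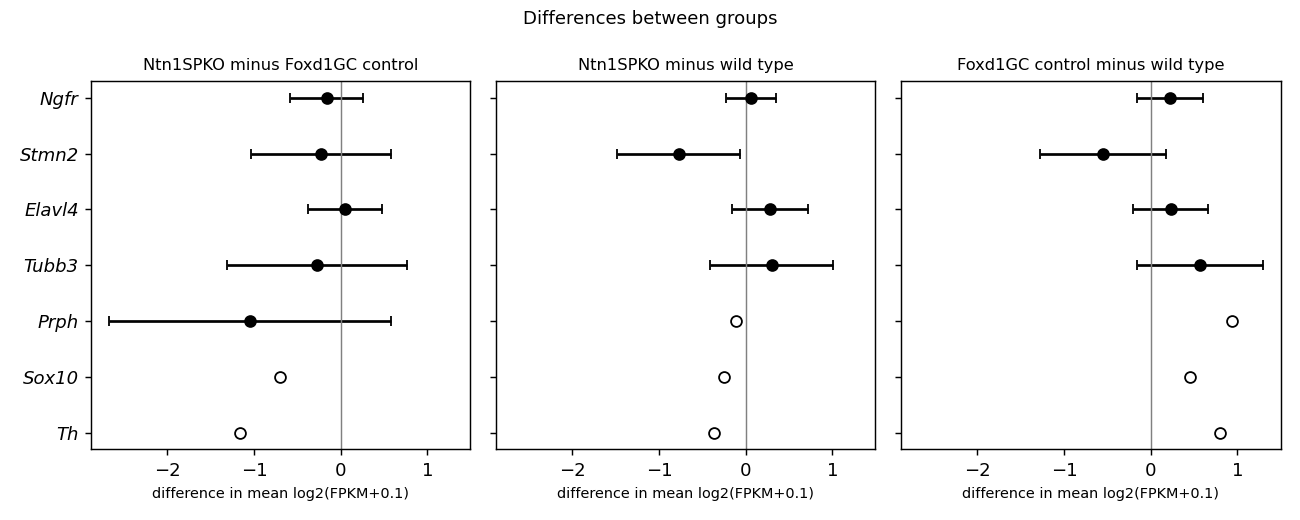
Differences in mean log2(FPKM+0.1) between groups for each gene, with 95% intervals from limma (filled points) or the value alone where the gene was too low to be tested (open points). The only interval that excludes 0 is that of *Stmn2* between *Ntn1SPKO* and wild-type kidneys, −1.49 to −0.06, which did not pass adjustment over all genes.

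Whether the genes varied together across the 10 libraries was examined over their 21 pairs, with Pearson's r and Spearman's rho of log2 values and permutation tests of each. Of these, 4 pairs had an unadjusted p under 0.05 by Pearson's r and 3 by Spearman's rho, and 0 passed adjustment over the pairs by either. *Prph* and *Th*, the markers of the peripheral and the noradrenergic neuron, had the highest values of both, with r of 0.70 (permutation p=0.0245, adjusted p=0.243) and rho of 0.78 (permutation p=0.0104, adjusted p=0.219). Leaving out the 2 libraries farthest from the median of *Prph* left r at 0.70, and removing group means gave 0.55. *Sox10* and *Ngfr*, the crest pair, had r of 0.65 (permutation p=0.0348, adjusted p=0.243) and rho of 0.72 (permutation p=0.0234, adjusted p=0.246). Without the 2 libraries farthest in *Sox10*, control replicates 1 and 3, r was 0.51.

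Of the other pairs, *Tubb3* and *Prph* had r of 0.64 (permutation p=0.0493, adjusted p=0.259) and rho of 0.66 (permutation p=0.0445, adjusted p=0.312). *Tubb3* and *Stmn2* ran in opposite directions, with r of −0.72 (permutation p=0.0201, adjusted p=0.243) and rho of −0.42 (permutation p=0.234, adjusted p=0.701). Both of these rested on control replicate 2 and *Ntn1SPKO* replicate 3, without which r was 0.32 and −0.02. *Tubb3*, *Stmn2* and *Elavl4*, all counted as neuronal genes, had no correlation in common. *Stmn2* with *Elavl4* had r of 0.01 (permutation p=0.979, adjusted p=0.979) and rho of −0.15 (permutation p=0.678, adjusted p=0.908).

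**Figure D3:**
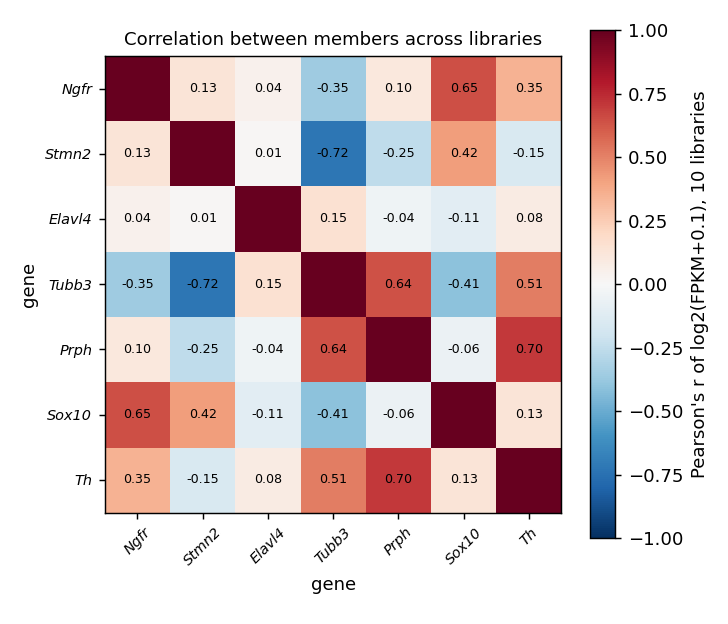
Pearson's r between log2(FPKM+0.1) of each pair of genes over the 10 libraries, printed in each square, with red for positive and blue for negative values. *Prph* with *Th* (0.70) and *Tubb3* with *Stmn2* (−0.72) are the strongest of each sign, and neither passed adjustment over the 21 pairs.

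Among 14530 genes averaging 0.5 FPKM or more, those most like each tested member over the 10 libraries were named by Pearson's r, as a description of libraries that share groups and tissue. For *Ngfr* they were *Trim63* (0.96), *Des* (0.94) and *Urgcp* (0.93). *Des*, desmin, an intermediate filament of muscle, is also in the skeletal muscle list and was highest in control replicate 3, at 65.7 FPKM against at most 46.9 FPKM elsewhere. The part of that library's muscle signal in the level of *Ngfr* was not tested. For *Tubb3* they were *Cd1d1* (0.89), *Cdr2* (0.89) and *S100a16* (0.87), for *Stmn2* *Mterf2* (0.91) and *Ahcy* (0.89), and for *Elavl4* the pseudogenes *Gm47726* (0.92) and *Gm10689* (0.91) and *Ccdc174* (0.91).

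*Th* was set among 19 measured genes of noradrenergic and sympathetic cells, which hold the enzymes and transporters of catecholamines, the transcription factors of the lineage and the granins of its vesicles. Of these, 13 had a mean under 0.5 FPKM, and their summed level was highest in control replicate 2 (7.16 FPKM), *Ntn1SPKO* replicate 3 (6.33 FPKM) and control replicate 3 (5.26 FPKM), against 1.97 to 3.40 FPKM in the other 7 libraries. The first of these libraries had the highest value of 8 of the 19 genes, and *Ntn1SPKO* replicate 3 of 5. These libraries belong to 2 groups. *Gata2*, *Gata3* and *Ddc*, which were among the 6 genes of the list above that level, are also made by kidney epithelium.

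The genes of the list named next were chosen after their values were seen. *Dbh*, the enzyme that turns dopamine into noradrenaline, was 3.51 FPKM in wild-type replicate 4, 4.62 FPKM in *Ntn1SPKO* replicate 3 and 1.139 FPKM in control replicate 2, and between 0.0576 and 0.626 FPKM elsewhere. *Chgb*, a granin, was 1.76 FPKM in *Ntn1SPKO* replicate 3 and at most 0.948 FPKM elsewhere. *Slc6a2*, the noradrenaline transporter, was highest in control replicate 2, at 0.239 FPKM. *Th* was at least 0.336 FPKM in wild-type replicate 4 and in control replicates 2 and 3, and *Ntn1SPKO* replicate 3 had the most *Th* of its group.

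**Figure D4:**
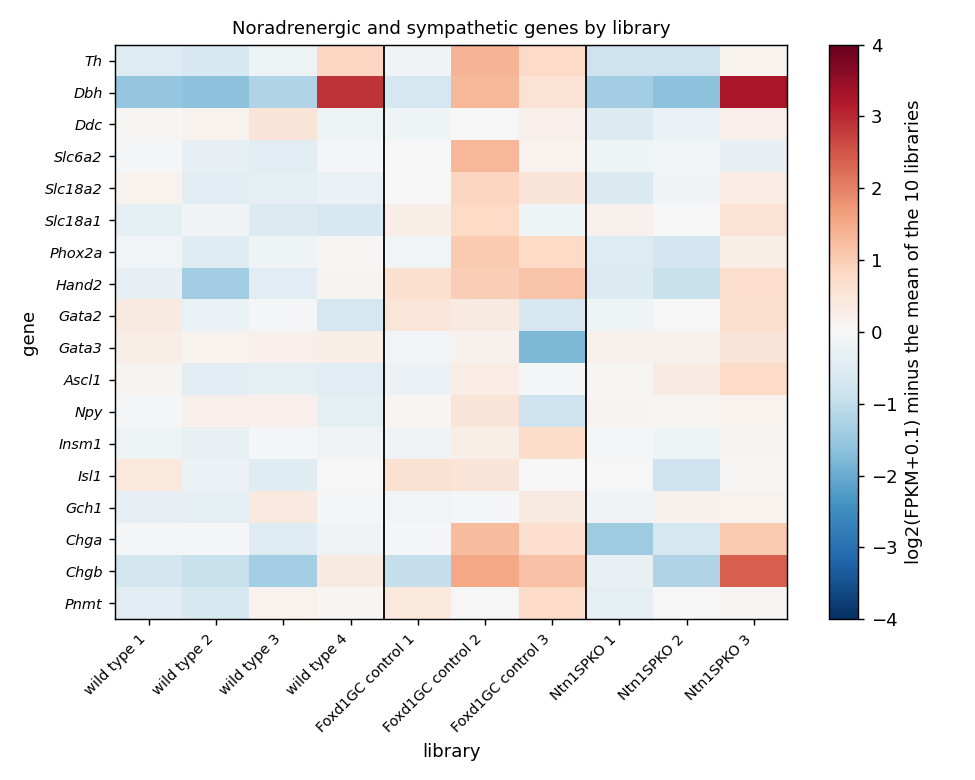
log2(FPKM+0.1) of 18 of the noradrenergic and sympathetic genes minus each gene's mean over the 10 libraries, with libraries in columns (black lines divide the groups) and red above the mean. *Th*, *Phox2a*, *Slc6a2* and the granins are high in *Foxd1GC* control replicate 2, where *Th* was 0.560 FPKM, and *Dbh* and *Chgb* in *Ntn1SPKO* replicate 3, at 4.62 and 1.76 FPKM.

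Between groups, 9 noradrenergic genes were tested in *Ntn1SPKO* versus control kidneys, 5 with a lower and 4 with a higher mean, at a median log2 difference of −0.22. That median had no stable sign, ranging from −0.42 to 0.20 with each library left out in turn and above 0 without control replicate 2 or *Ntn1SPKO* replicate 1 or 2. limma called 0 of them, and 0 had an unadjusted p under 0.05. Over all 19 measured genes 15 had a lower and 4 a higher mean, with a median log2 difference of −0.33. *Hand2*, a transcription factor of sympathetic neurons and also of mesenchyme, had the largest difference, with 0.571, 0.749 and 0.848 FPKM in controls and 0.193, 0.128 and 0.589 FPKM in *Ntn1SPKO* kidneys. Its log2 difference was −1.18 (limma adjusted p=0.447), and *Ntn1SPKO* replicate 3 reached into the control range. Against wild type 6 genes were tested in each comparison. The median log2 difference was 0.11 in *Ntn1SPKO* and 0.08 in control kidneys, and 0 of the 6 were called or had an unadjusted limma p under 0.05 in either. The 13 low genes are not in these medians. Over all 19 measured genes, 13 had a higher and 6 a lower mean in *Ntn1SPKO* kidneys than in wild type, with a median log2 difference of 0.11. In controls 16 were higher and 3 lower than in wild type, with a median of 0.68. Groups did not overlap for 3 genes, all higher, against 4.04% of the genes tested. Those 3, *Chga*, *Hand2* and *Slc6a2*, were too low to be tested, so the share comes from genes at higher levels.

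Cells of the adrenal medulla share most of these genes, and the adrenal gland lies against the kidney. Of 10 genes of adrenal cortex and gonad, 9 had a mean under 0.5 FPKM, and the list summed to 2.81 to 4.33 FPKM per library, mostly *Mc2r*. The highest sum was that of control replicate 2, the library with the most *Th* and the highest noradrenergic sum, which also had the highest value of 5 of the 10 genes. Its 9 low genes summed to 2.00 FPKM against 0.571 to 1.30 FPKM in the other libraries. *Cyp17a1* and *Cyp21a1*, enzymes of steroid synthesis, were listed at 0 in 9 and 8 of the 10 libraries. *Cyp17a1* was 0.0419 FPKM in control replicate 2 alone, and *Cyp21a1* was 0.0362 FPKM in it and 0.0755 FPKM in control replicate 3. *Mc2r*, the only gene of the list high enough to be tested, was 2.32 FPKM in control replicate 2. It was 2.80 to 3.02 FPKM in *Ntn1SPKO* kidneys, above the controls (1.84 to 2.32 FPKM) and wild type (1.96 to 2.35 FPKM). Its limma adjusted p was 0.447 and 0.529, and 11.0% and 3.56% of all genes tested were higher without overlap in these comparisons. A part of adrenal tissue in the level of *Th* was not tested.

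Pan-neuronal genes, 28 in all, had means over the 10 libraries from 29.7 FPKM (*Uchl1*) to 0.0572 FPKM (*Scg2*), 10 of them under 0.5 FPKM. The members in this list were at 9.68 (*Stmn2*), 6.18 (*Elavl4*), 0.997 (*Tubb3*) and 0.454 FPKM (*Prph*). The part of kidney cells in these levels was not tested. Of the 28 genes, 19 were tested between *Ntn1SPKO* and control kidneys. Of these 14 had a lower and 5 a higher mean, with a median log2 difference of −0.19, and limma called 0. An unadjusted p under 0.05 was reached by 2, both lower, against 10.7% of all genes in either direction. Groups did not overlap for 3 genes in the lower and 1 in the higher direction, against 8.91% and 11.0% of all genes. With the 9 genes too low to be tested, 21 of 28 had a lower and 7 a higher mean.

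*Stmn4*, a relative of *Stmn2* that is made by neurons, had the largest difference of the list. It was 0.869, 1.72 and 3.64 FPKM in controls and 0.161, 0.0327 and 0.344 FPKM in *Ntn1SPKO* kidneys. Wild-type replicates 1 to 4 had 0.421, 0.489, 0.246 and 0.456 FPKM. Controls stood above both other groups with no overlap. The log2 difference from controls was −2.92 in *Ntn1SPKO* kidneys (limma adjusted p=0.447), and that of controls from wild type was 1.93 (limma adjusted p=0.665). *Stmn2* did not follow it: control replicate 3, which had the most *Stmn4*, had 9.996 FPKM of *Stmn2*, and control replicate 2 had the lowest *Stmn2* of its group.

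Against wild type, 17 pan-neuronal genes were tested in *Ntn1SPKO* kidneys, 7 with a lower and 10 with a higher mean, and 18 in controls, 9 in each direction. Their median log2 differences were 0.05 and 0.01, and limma called 0 in either. Over all 28 measured genes 14 were lower and 14 higher in *Ntn1SPKO* kidneys (median −0.02), and 10 were lower and 18 higher in controls (median 0.19). *Stmn2* was 1 of 2 genes lower in *Ntn1SPKO* kidneys at an unadjusted p under 0.05, while in controls 2 genes were higher and 1 lower at that limit. Over all genes 5.76% and 7.06% passed it in either direction.

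*Sox10* and *Ngfr* were read beside 21 genes of the neural crest and Schwann cell lineage, themselves included. Between *Ntn1SPKO* and control kidneys 12 were tested, 7 with a lower and 5 with a higher mean, at a median log2 difference of −0.07. Over all 21, the low genes included, 14 had a lower and 7 a higher mean, with a median of −0.18. limma called 0, and 1 had an unadjusted p under 0.05, in the higher direction, against 10.7% of all genes in either direction. Control replicate 3 had the highest value of 9 of the 21 genes. Kidney epithelium and mesenchyme also make several of them, such as *Erbb3*, *Ednrb*, *Tfap2a*, *Cdh6* and *Pmp22*, and the list is not a measure of glia alone.

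Compared with wild type, 13 crest and Schwann cell genes were tested in both other groups, 7 with a lower and 6 with a higher mean in each. Medians were −0.06 in *Ntn1SPKO* and −0.02 in control kidneys, and limma called 0. Over all 21 measured genes 12 were lower and 9 higher in *Ntn1SPKO* kidneys (median −0.09), and 8 were lower and 13 higher in controls (median 0.14), so the low genes turned the sign in controls. In *Ntn1SPKO* kidneys 2 genes were lower and 1 higher at an unadjusted p under 0.05, and in controls 1 was lower. The shares of all genes at that limit, in either direction, were 5.76% and 7.06%. *Egr2*, a transcription factor of myelinating Schwann cells, was 1.08 and 1.52 FPKM in wild-type replicates 2 and 3 and no more than 0.278 FPKM in the other 8 libraries. Its log2 difference from wild type was −1.30 in *Ntn1SPKO* kidneys (limma adjusted p=0.947) and −1.08 in controls (limma adjusted p=0.675).

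Ligands and receptors that nerves use were measured at higher levels than most nerve genes. Of 18 genes of the neurotrophin and GDNF families, *Ngfr* among them, 16 averaged 0.5 FPKM or more and 1, *Pspn*, was listed at 0 in each library. *Gdnf*, *Ret* and *Gfra1* also drive branching of the ureteric bud in this organ. Between *Ntn1SPKO* and control kidneys 16 were tested, 10 with a lower and 6 with a higher mean, at a median log2 difference of −0.24. limma called 0 of them, and 2 were lower at an unadjusted p under 0.05, against 10.7% of all genes in either direction. Against wild type the medians were 0.07 over 15 genes in *Ntn1SPKO* kidneys and 0.21 over 16 in controls. In each, 0 were called and 1 was higher at an unadjusted p under 0.05, a limit passed by 5.76% and 7.06% of all genes.

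Most sensory and cholinergic markers were low. Of 17 measured sensory neuron genes 13 had a mean under 0.5 FPKM, and of 4 cholinergic genes all did. Between *Ntn1SPKO* and control kidneys 4 sensory genes were tested, 3 with a lower and 1 with a higher mean (median log2 difference −0.50), and 1 cholinergic gene with a log2 difference of −0.97. limma called 0 in both lists, and 0 had an unadjusted p under 0.05. Against wild type 3 sensory genes were tested in *Ntn1SPKO* and 4 in control kidneys, with medians of 0.35 and 0.54 and 0 called or under an unadjusted limma p of 0.05. Over all 17 measured sensory genes the medians were −0.05 in *Ntn1SPKO* kidneys (10 lower, 7 higher) and 0.05 in controls (4 lower, 13 higher). Against controls, *Ntn1SPKO* kidneys had 12 of the 17 lower and 5 higher, with a median of −0.08.

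Skeletal muscle genes were counted too, and whether they mark other tissue in the dissections was not tested. The paper reported that gene sets of muscle cell differentiation were lower without *Ntn1*. The median difference of the skeletal muscle genes between *Ntn1SPKO* and control kidneys was larger than that of any nerve list. Of 14 skeletal muscle genes tested all had a lower mean in *Ntn1SPKO* kidneys, with a median log2 difference of −2.04. All 17 genes of the list were highest in control replicate 3, and the median was −1.06 without that library and −2.95 without control replicate 2. Of the 14, 6 had groups that did not overlap, against 8.91% of all genes in the lower direction. limma called 0, and 5 had an unadjusted p under 0.05, against 10.7% of all genes in either direction. Against wild type 13 were tested, 12 with a lower and 1 with a higher mean in *Ntn1SPKO* kidneys, at a median log2 difference of −1.63. Groups did not overlap for 7, all lower, against 3.54% of all genes. limma called 0 there too, and 9 were lower at an unadjusted p under 0.05, against 5.76% of all genes in either direction. *Myog*, a factor that drives muscle differentiation, was 5.12, 1.18 and 30.0 FPKM in controls and 0.707, 0.379 and 0.904 FPKM in *Ntn1SPKO* kidneys (log2 difference −3.01, limma adjusted p=0.447). From wild type, at 5.62, 2.61, 2.76 and 2.34 FPKM, the *Ntn1SPKO* kidneys differed by −2.15 on the log2 scale (limma adjusted p=0.156). Muscle carries motor axons and Schwann cells of its own, and the part of such tissue in the levels of *Sox10*, *Prph*, *Stmn4* and *Ngfr* was not tested.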

How the data were processed

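RNA-seq of whole kidneys of E13.5 embryos was analysed for 4 wild-type, 3 *Foxd1GC* control and 3 *Ntn1SPKO* libraries. According to the study's methods, the authors estimated transcript abundance with Salmon against coding sequences of Ensembl GRCm38 and imported it with tximport, and the submitters' processing notes name bcl2fastq 2.17.1.14. The deposited values are FPKM for 35663 entries, and no earlier step was repeated. Median-of-ratios factors were the same in all libraries, so the FPKM were used without further scaling.

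limma 3.58.1 in R 4.3.3 was run on log2(FPKM+0.1) with an intensity trend over genes averaging 0.5 FPKM or more, separately for each comparison. Calls needed an adjusted p under 0.1 and at least a 2-fold change. DESeq2, which the authors used on counts, was not run. Exact permutation tests used scipy 1.17.1, where a two-sided p doubles the smaller one-sided one. Correlations used 100000 resamples. Fragment numbers were estimated from the steps between low values and coding lengths and are rough. The steps were tested on simulated data.

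The 7 genes and the marker lists were chosen with earlier results of these data known. Named were the 7 genes, *Ntn1*, per list and comparison up to 3 tested genes with the lowest unadjusted p among those with at least a 2-fold change, any called gene, and the 3 genes most like each tested member. Some genes that this rule names are not reported here. *Chrna3* and *Drgx* were not analysed here. Alternatives were other pseudocounts, filters, scalings and variance settings, 1 fit of all libraries, the replicate number as a block, embryo sex as a covariate, and each library left out.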

Additional observations from a re-analysis of the deposited data

How the results depend on the processing

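No member was called under any alternative in which it was tested except *Stmn2*. It was lower in *Ntn1SPKO* than in wild-type kidneys with embryo sex as a covariate (log2 difference −1.30). That fit sets the *Ntn1SPKO* kidneys, all male, against 1 male wild-type library, so the call rests on that library. The sign of the members' median log2 difference was kept under the alternatives, except between *Ntn1SPKO* and wild-type kidneys once all 7 members were counted. There the middle value of the 7 was that of *Prph*, −0.11, against 0.17 over the 4 members tested. Control replicate 2 is the only male control, so with embryo sex in the model the differences from controls rest on that library. The log2 differences between *Ntn1SPKO* and control kidneys then became 0.379 for *Stmn2*, −0.092 for *Elavl4* and 0.029 for *Ngfr*, each with the sign turned. With each library left out in turn they ranged from −0.522 to 0.058 for *Stmn2*, −0.080 to 0.202 for *Elavl4*, −0.255 to 0.022 for *Ngfr* and −0.601 to 0.054 for *Tubb3*. Against wild type, leaving libraries out gave *Ntn1SPKO* differences of −0.030 to 0.139 for *Ngfr*, −0.032 to 0.537 for *Tubb3*, and −0.754 to 0.479 for *Prph*, which was too low to be tested there.

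Counts of genes called between *Ntn1SPKO* and control kidneys, 8 as reported, were 21 with no filter and 3 to 78 with libraries left out. They were 16, 78 and 20 without control replicates 1, 2 and 3, and 21 and 3 without *Ntn1SPKO* replicates 1 and 2. Between *Ntn1SPKO* and wild-type kidneys, 7 as reported, they were 2 with a pseudocount of 1 FPKM, 18 with no filter, 12 with no intensity trend, 187 with embryo sex and 1 to 20 with libraries left out (17 and 20 without wild-type replicates 3 and 4, and 19 and 1 without *Ntn1SPKO* replicates 1 and 2). Between control and wild-type kidneys, 1 as reported, they were 2 with a pseudocount of 1 or of 0.01 FPKM, 9 with no filter, 4 with no intensity trend and 3 to 20 with libraries left out, each of the 7 libraries raising it. A limma fit of all 10 libraries called 0 in each comparison, with 1598, 636 and 1496 genes at an unadjusted p under 0.05. The count with embryo sex, between *Ntn1SPKO* and wild-type kidneys, rests on 1 male wild-type library, and no conclusion is drawn from it. The causes of these changes in the counts were not tested.

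With a replicate block, 4 genes were called between *Ntn1SPKO* and control kidneys and no member's call changed. Same-numbered libraries deviated together with r of only −0.047 to 0.076, and nothing in the labels pairs them.

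The low counts of fragments limit *Th*, *Sox10* and *Prph*, of which *Th* and *Sox10* were not tested in any comparison unless the filter was dropped. Sex cannot be separated from genotype within the *Ntn1SPKO* group, which holds males only. Fits with embryo sex therefore set that group against 1 male library in each other group, and counts of genes called in them cannot be relied on.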
